A study of Mus musculus with 8 samples.

Results

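The BCL2 family and the apoptosis genes that act with it were followed through mouse pre-B cells carrying ZNF384 or one of its leukaemia fusions. The set was 10 genes given by symbol: Bcl2, Bcl2l1, Mcl1, Bcl2a1b, Bcl2l11, Bbc3, Pmaip1, Bax, Bak1 and Apaf1. All 10 were among the 32499 genes of the deposited count table, and 9 passed the filter on low counts. Bcl2a1b was listed at 0 in every library. RNA came from GFP-sorted pre-B cells of C57BL/6 bone marrow, and all groups, controls included, lacked Arf, the tumour suppressor product of Cdkn2a that acts upstream of p53. There were 4 groups of 2 libraries, transduced with lentivirus for HA-tagged TCF3-ZNF384, HA-tagged TAF15-ZNF384, HA-tagged full-length (wild-type) ZNF384 or the empty vector. The series describes the replicates as biological. The labels do not say whether they came from separate animals, so p-values measure only the spread between these samples, which may be technical.

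Commitment to mitochondrial apoptosis is decided by binding between proteins of this family. Bcl2, Bcl2l1 (BCL-XL), Mcl1 and Bcl2a1b (A1) encode guardians that hold the pore-forming effectors BAX and BAK1 in check. The BH3-only proteins BIM (Bcl2l11), PUMA (Bbc3) and NOXA (Pmaip1) bind the guardians and free the effectors, and APAF1 then assembles the apoptosome around released cytochrome c. In developing B cells BIM, MCL1 and BCL2 are known to set survival under interleukin-7, and PUMA and NOXA are textbook p53 targets.

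Total counts per library were 9583008 and 17876711 with TCF3-ZNF384, 9381954 and 9963494 with TAF15-ZNF384, 41483660 and 20298726 with full-length ZNF384 and 28469291 and 29072409 with the empty vector. The fusion libraries were thus shallower than all the others, and the part of depth in the numbers of calls was not tested. The 2 libraries of each group differed by more than sampling noise. All 9 pre-B cell markers, among them Cd79a and Pax5, were detected in every library, with a summed level of 5630 to 5640 CPM (counts scaled to the library total after adjustment by trimmed mean of M values) with TCF3-ZNF384, 6270 to 6360 with TAF15-ZNF384, 6330 to 6370 with full-length ZNF384 and 5940 to 6340 with the empty vector. Of 6 T and NK cell markers 2 or 3 were detected per library, summing to 0.619 to 1.74 CPM. Among them Klrb1c was at 0.552 and 1.08 CPM with TCF3-ZNF384 and 0.761 and 0.317 with TAF15-ZNF384. It was at most 0.0782 CPM with full-length ZNF384 or the empty vector. Of 7 myeloid markers 3 to 5 were detected, summing to 4.68 to 7.11 CPM, most of it Cd68. Itgam of that list was at 1.01 and 0.915 CPM with TCF3-ZNF384 and at most 0.109 in the other groups. Erythroid and megakaryocyte markers summed to 3.45 to 6.63 CPM and stromal markers to 0.367 to 1.38 CPM. Mature B and plasma cell markers summed to 28.3 and 30.0 CPM with TCF3-ZNF384, 34.7 and 36.7 with TAF15-ZNF384, 73.4 and 51.4 with full-length ZNF384 and 29.8 and 33.5 with the empty vector, most of it Sdc1. Sdc1, Jchain and Cr2 of this list were highest with full-length ZNF384, and Fcer2a reached at most 0.109 CPM. Prdm1 ran the other way. It was at 4.23 and 5.01 CPM with TCF3-ZNF384 and 2.07 and 0.952 with TAF15-ZNF384. With full-length ZNF384 it was at 0.527 and 0.481 CPM, and with the empty vector at 0.587 and 0.766. The part of these markers in the results of any group was not tested. A set of 5 abundant non-coding genes took 18.5 and 24.5% of counts with TCF3-ZNF384, 28.1 and 29.6% with TAF15-ZNF384, 10.9 and 12.5% with full-length ZNF384 and 27.2 and 33.2% with the empty vector. In bulk RNA, fewer cells of a type and less RNA per cell cannot be told apart.

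The 300-base windows at the annotated starts of Bcl2, Bcl2l11 and Bbc3 are printed because these are the guardian and the 2 BH3-only genes whose calls between full-length ZNF384 and the other groups held in every alternative fit. They are RefSeq promoter sequences (build GRCm38.p6), each found once by exact match in the mm9 assembly: chr1:108610818-108611117 on the minus strand for Bcl2, chr2:127951524-127951823 on the plus strand for Bcl2l11 and chr7:16894682-16894981 on the plus strand for Bbc3. Capitals mark matches to the E-box CANNTG, bound by E proteins such as TCF3, to the run AAAAAA, of the kind that ZNF384 binds, or to the p53 half-site, each searched on both strands.
Bcl2: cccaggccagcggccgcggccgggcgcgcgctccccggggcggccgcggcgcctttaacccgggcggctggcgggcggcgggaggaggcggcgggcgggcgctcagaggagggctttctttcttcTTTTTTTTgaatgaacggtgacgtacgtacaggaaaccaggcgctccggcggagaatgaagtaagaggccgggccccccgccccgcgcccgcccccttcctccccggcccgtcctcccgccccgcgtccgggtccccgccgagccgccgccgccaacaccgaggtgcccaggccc
Bcl2l11: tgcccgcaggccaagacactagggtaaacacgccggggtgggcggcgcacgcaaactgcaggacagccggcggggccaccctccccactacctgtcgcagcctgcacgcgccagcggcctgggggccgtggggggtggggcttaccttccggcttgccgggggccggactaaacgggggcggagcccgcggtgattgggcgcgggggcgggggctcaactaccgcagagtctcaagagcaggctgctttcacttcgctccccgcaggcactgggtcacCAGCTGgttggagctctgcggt
Bbc3: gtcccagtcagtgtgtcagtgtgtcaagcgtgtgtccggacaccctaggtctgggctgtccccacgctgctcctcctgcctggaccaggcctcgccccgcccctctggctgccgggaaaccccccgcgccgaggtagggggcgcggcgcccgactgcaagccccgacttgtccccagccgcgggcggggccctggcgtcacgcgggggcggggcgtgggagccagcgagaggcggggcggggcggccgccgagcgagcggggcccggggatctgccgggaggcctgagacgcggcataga
The Bcl2 window held 3 overlapping AAAAAA matches on the opposite strand, the outermost 125 bases before the start, and no E-box. The window of Mcl1, a gene not called in any comparison, also held an AAAAAA match, 146 bases before its start, and an E-box. The Bcl2l11 window held 1 E-box, 29 bases after the start, and the Bbc3 window held none of the motifs. Both Bcl2l11 and Bbc3 have further RefSeq starts, and the other Bbc3 windows held 2 E-boxes each. The window of Pmaip1 was not examined. Of 32851 RefSeq promoter windows of this length, 72.3% held an E-box, 19.2% the A run and 8.36% a p53 half-site, so the first is common in any window. Whether ZNF384 or either fusion binds any of these matches was not tested.

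Bcl2 (chromosome 1, from 108434755 to 108610851 in mm9, protein coding) stood at a separate level in each group. It was at 53.3 and 48.7 CPM in TCF3-ZNF384 cells, 90.8 and 99.1 in TAF15-ZNF384 cells, 354 and 389 in full-length ZNF384 cells and 175 and 153 in empty vector cells. No library of one group overlapped another group, in the order full-length ZNF384, empty vector, TAF15-ZNF384, TCF3-ZNF384, and the highest group mean was 7.27 times the lowest. Over the empty vector, Bcl2 fell with TCF3-ZNF384 by a log2 fold change of −1.69 ± 0.11 (SE, adjusted p = 7.72e-08). It fell with TAF15-ZNF384, at −0.79 ± 0.11 (adjusted p = 0.000364), and rose with full-length ZNF384, at 1.18 ± 0.11 (adjusted p = 7.66e-06). Both fusions were also set against the unfused protein. Relative to full-length ZNF384, Bcl2 in TCF3-ZNF384 cells was lower by −2.87 ± 0.11 (adjusted p = 5.83e-10), and in TAF15-ZNF384 cells by −1.97 ± 0.11 (adjusted p = 9.64e-08). The fusions differed from each other as well, at −0.90 ± 0.11 for TCF3-ZNF384 over TAF15-ZNF384 (adjusted p = 0.000156). All 6 calls were kept in each of 17 alternative fits. An annotated antisense transcript overlaps 7.76% of the exon bases of Bcl2 and was not analysed here.

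**Figure D1:**
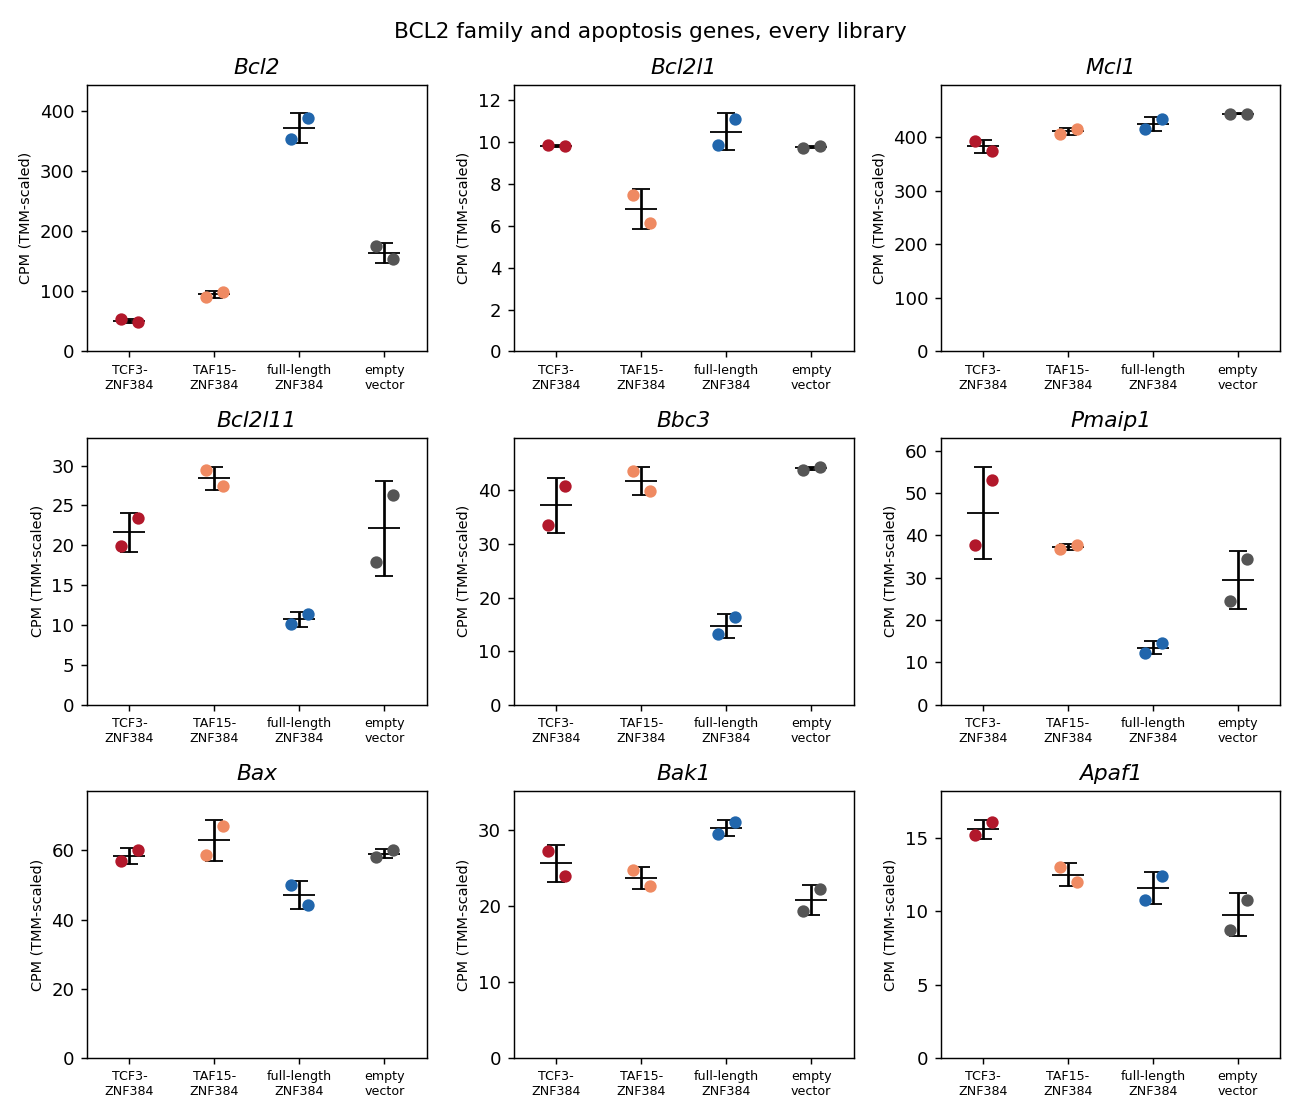
CPM of the 9 genes that passed the filter (vertical axes, linear from 0) in the 4 groups, with points for the 2 libraries and bars for mean ± SD. Bcl2 forms 4 separate levels, at 354 and 389 CPM with full-length ZNF384 and 53.3 and 48.7 CPM with TCF3-ZNF384, whereas Bcl2l11, Bbc3 and Pmaip1 are lowest with full-length ZNF384.

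The other guardians moved much less. Mcl1, a short-lived guardian on which pre-B cells depend (chromosome 3, from 95462643 to 95467099), was at 392 and 375 CPM with TCF3-ZNF384, 406 and 415 with TAF15-ZNF384, 415 and 434 with full-length ZNF384 and 444 and 444 with the empty vector. Its highest group mean was 1.16 times its lowest, the smallest range of the 9 genes, and it was not called in any of the 6 comparisons. The largest difference was −0.21 ± 0.09 for TCF3-ZNF384 over the empty vector (adjusted p = 0.0822), which was called in 3 of 17 alternatives. Bcl2l1 (chromosome 2, from 152593052 to 152657464) was at 9.85 and 9.80 CPM with TCF3-ZNF384, 7.50 and 6.14 with TAF15-ZNF384, 9.86 and 11.1 with full-length ZNF384 and 9.74 and 9.80 with the empty vector. TAF15-ZNF384 cells held the lowest values, below every library of the other groups. Relative to full-length ZNF384 it was lower in these cells, by −0.61 ± 0.17 (adjusted p = 0.0116). The call was lost in 3 of 17 alternatives, 1 of them without TAF15-ZNF384 replicate 2 (−0.49, adjusted p = 0.113). Against the empty vector the difference was −0.52 ± 0.17 with TAF15-ZNF384 (adjusted p = 0.0618), and TCF3-ZNF384 over TAF15-ZNF384 was at 0.53 ± 0.17 (adjusted p = 0.0727), so neither passed the test. They were called in 4 and 2 of 17 alternatives, with Bcl2l1 past the threshold in both without full-length ZNF384 replicate 1 (adjusted p = 0.0353 and adjusted p = 0.0463) and without full-length ZNF384 replicate 2 (adjusted p = 0.0362 and adjusted p = 0.0474). Counts per gene do not separate the long and short forms of BCL-XL or of MCL1.

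Bcl2a1b (chromosome 9, from 89094047 to 89102665) had 0 counts in all 8 libraries, as had its relatives Bcl2a1a, Bcl2a1c and Bcl2a1d. A count of 0 allows up to 3 counts, which is 0.0688 to 0.326 CPM depending on the library, for counting error only. The gene is hard to count in any tissue. Of the 50-base windows along its transcript, 79.0% also occur in another protein-coding transcript, and its coding sequence is 98.84% identical to that of Bcl2a1d and 97.88% to that of Bcl2a1a. The annotated exons of Mthfs, on the same strand, cover 49.08% of its exon bases. Reads that fit several genes could have been dropped in counting, which was not tested, so the 0 does not show that A1 was not expressed.

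The 3 BH3-only genes shared one feature, a low level in full-length ZNF384 cells. Bbc3, encoding PUMA (chromosome 7, from 16894965 to 16903554), was at 33.6 and 40.8 CPM with TCF3-ZNF384, 43.6 and 39.9 with TAF15-ZNF384, 13.1 and 16.3 with full-length ZNF384 and 43.8 and 44.3 with the empty vector. Both full-length ZNF384 libraries lay far below the other 6, which lay between 33.6 and 44.3 CPM. Bbc3 fell with full-length ZNF384 by −1.60 ± 0.13 on the log2 scale against the empty vector (adjusted p = 3.16e-06). Neither fusion passed the test against the empty vector, with TCF3-ZNF384 at −0.24 ± 0.12 (adjusted p = 0.162) and TAF15-ZNF384 at −0.08 ± 0.13 (adjusted p = 0.738). Against full-length ZNF384 it was higher with TCF3-ZNF384 by 1.36 ± 0.13 (adjusted p = 2.30e-06) and with TAF15-ZNF384 by 1.52 ± 0.13 (adjusted p = 3.00e-06).

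Bcl2l11, encoding BIM (chromosome 2, from 127951774 to 127988283), was at 19.9 and 23.4 CPM with TCF3-ZNF384, 29.5 and 27.4 with TAF15-ZNF384, 10.1 and 11.4 with full-length ZNF384 and 17.9 and 26.3 with the empty vector. The empty vector libraries spread widely, and they enclosed both TCF3-ZNF384 libraries. Bcl2l11 fell with full-length ZNF384 against the empty vector, by −1.05 ± 0.16 (adjusted p = 0.000619). This held in all 17 alternatives, from −0.74 without empty vector replicate 2 to −1.30 without empty vector replicate 1. It was higher than with full-length ZNF384 in TCF3-ZNF384 cells, by 1.03 ± 0.17 (adjusted p = 0.000273), and in TAF15-ZNF384 cells, by 1.42 ± 0.17 (adjusted p = 5.45e-05). The difference of TAF15-ZNF384 from the empty vector, 0.36 ± 0.17, did not pass the test (adjusted p = 0.178), but it was called without empty vector replicate 2, at 0.66 (adjusted p = 0.0324). TCF3-ZNF384 over TAF15-ZNF384 was at −0.39 ± 0.17 (adjusted p = 0.187).

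Pmaip1, encoding NOXA, which binds MCL1 and A1 (chromosome 18, from 66618258 to 66625204), was at 37.6 and 53 CPM with TCF3-ZNF384, 36.7 and 37.8 with TAF15-ZNF384, 12.3 and 14.5 with full-length ZNF384 and 24.5 and 34.3 with the empty vector. The order was fusions, empty vector, full-length ZNF384, and only the 2 fusions overlapped. It fell with full-length ZNF384 by −1.14 ± 0.18 against the empty vector (adjusted p = 0.00146), a call lost without full-length ZNF384 replicate 1 (−1.04, adjusted p = 0.0703). It rose with TCF3-ZNF384 by 0.64 ± 0.18 (adjusted p = 0.0183). That call was lost in 5 of 17 alternatives, and the value was 0.35 without TCF3-ZNF384 replicate 2 (adjusted p = 0.221) and 0.41 without empty vector replicate 1 (adjusted p = 0.129). TAF15-ZNF384 did not pass the test, at 0.34 ± 0.19 (adjusted p = 0.269). Against full-length ZNF384, Pmaip1 in TCF3-ZNF384 cells was higher by 1.78 ± 0.19 (adjusted p = 2.13e-05) and in TAF15-ZNF384 cells by 1.49 ± 0.19 (adjusted p = 0.000216).

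The effector genes moved in opposite directions with full-length ZNF384. Bak1 (chromosome 17, from 27156755 to 27165954) was at 27.3 and 23.9 CPM with TCF3-ZNF384, 24.7 and 22.6 with TAF15-ZNF384, 29.5 and 31.0 with full-length ZNF384 and 19.4 and 22.2 with the empty vector. It rose with full-length ZNF384 against the empty vector, by 0.54 ± 0.11 (adjusted p = 0.00443), a call lost without empty vector replicate 1 (0.45, adjusted p = 0.0645). Bak1 shares 14.83% of its exon bases with Ggnbp1 on the opposite strand, a gene at 1.59 to 3.59 CPM over the libraries. Bax (chromosome 7, from 52717065 to 52722268) was at 56.9 and 60.1 CPM with TCF3-ZNF384, 58.7 and 67.2 with TAF15-ZNF384, 50.1 and 44.3 with full-length ZNF384 and 58.2 and 60.0 with the empty vector. The full-length ZNF384 libraries were the 2 lowest and the other groups overlapped. Bax fell with full-length ZNF384 against the empty vector by −0.32 ± 0.10 (adjusted p = 0.0412), but that call was kept in only 9 of 17 alternatives. It was higher than with full-length ZNF384 in TCF3-ZNF384 cells (0.31 ± 0.11, adjusted p = 0.0275, called in 11 of 17 alternatives) and in TAF15-ZNF384 cells (0.41 ± 0.11, adjusted p = 0.00934, called in 16 of 17). Relative to full-length ZNF384, Bak1 in TAF15-ZNF384 cells was lower by −0.35 ± 0.12 (adjusted p = 0.0373), a call kept in 4 of 17 alternatives. The difference of TCF3-ZNF384 from full-length ZNF384 was −0.25 ± 0.12 (adjusted p = 0.0968).

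Apaf1, the scaffold of the apoptosome (chromosome 10, from 90452056 to 90545515), was at 15.2 and 16.1 CPM with TCF3-ZNF384, 13 and 12 with TAF15-ZNF384, 10.8 and 12.4 with full-length ZNF384 and 8.72 and 10.8 with the empty vector. Both TCF3-ZNF384 libraries lay above all the others. Apaf1 rose with TCF3-ZNF384 against the empty vector by 0.68 ± 0.15 (adjusted p = 0.00295), in all 17 alternatives. It was higher with TCF3-ZNF384 than with full-length ZNF384 by 0.44 ± 0.14 (adjusted p = 0.0217), a call lost in 3 alternatives, among them those without TCF3-ZNF384 replicate 2 (0.41, adjusted p = 0.137) and without full-length ZNF384 replicate 1 (0.36, adjusted p = 0.108). TAF15-ZNF384 was at 0.35 ± 0.16 and full-length ZNF384 at 0.24 ± 0.14 over the empty vector, with adjusted p = 0.169 and adjusted p = 0.263.

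**Figure D2:**
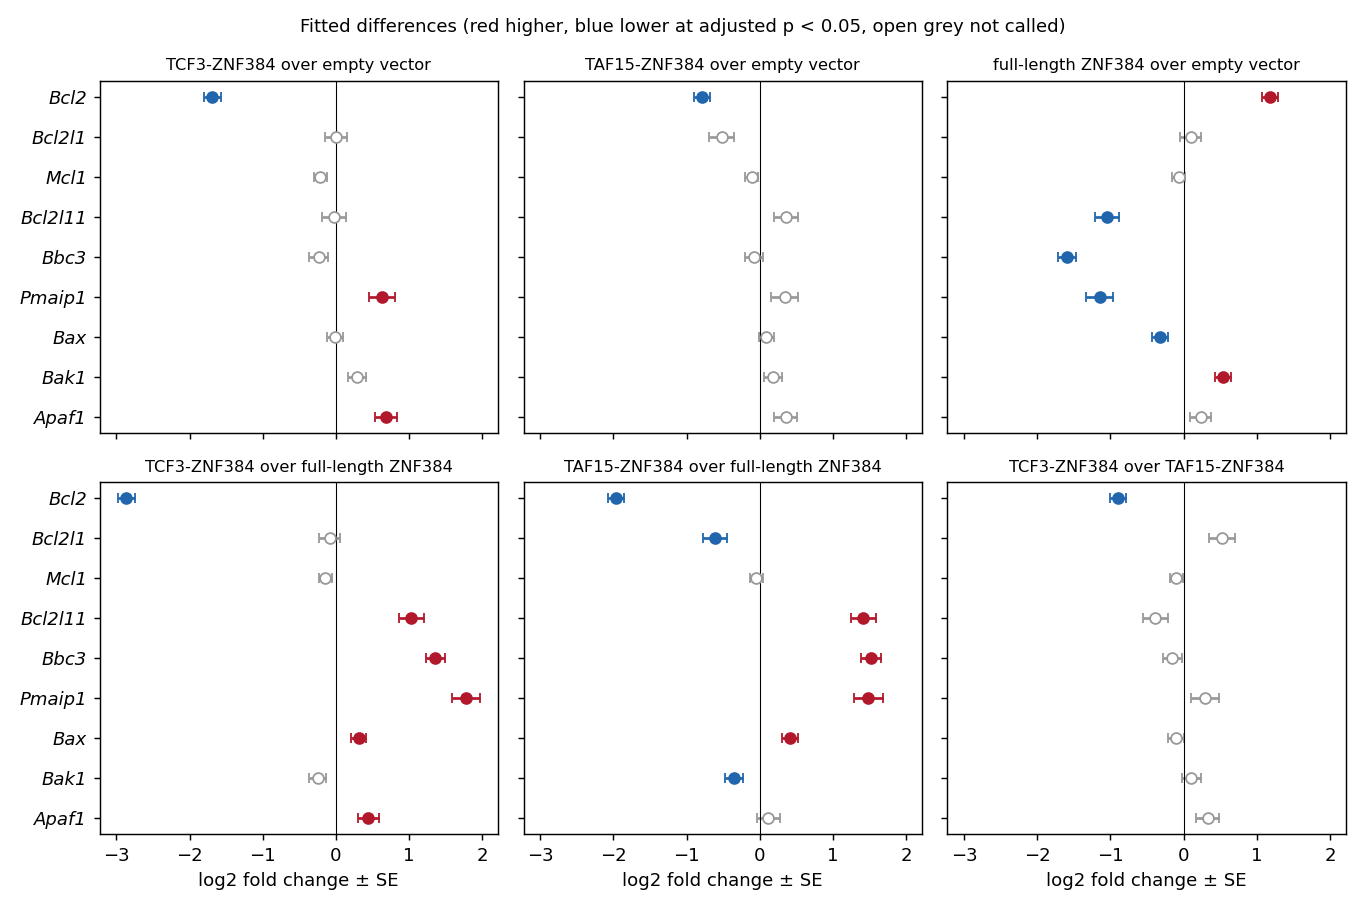
Log2 fold change ± SE (horizontal axes) of the 9 tested genes in the 6 comparisons, filled where adjusted p was under 0.05 and open where it was not. Bcl2 is filled in all 6 panels, from −2.87 for TCF3-ZNF384 over full-length ZNF384 to 1.18 for full-length ZNF384 over the empty vector, and the last panel holds no other filled point.

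Counted by comparison, TCF3-ZNF384 differed from the empty vector in 3 of the 9 tested genes, with Apaf1 and Pmaip1 higher and Bcl2 lower. Of all 12970 tested genes 33.3% were called in that comparison, 16.2% higher and 17.0% lower, so the share among the 9 is near the background. Libraries of these 2 groups did not overlap for 7 of the 9, beside 71.0% of all genes. TAF15-ZNF384 differed from the empty vector in Bcl2 alone, which was lower, beside 11.0% of all genes called, 5.01% higher and 6.01% lower. Here 8 of the 9 did not overlap, beside 59.3% of all genes. Full-length ZNF384 differed from the empty vector in 6 genes, with Bcl2 and Bak1 higher and Bbc3, Bcl2l11, Pmaip1 and Bax lower. Of all genes 20.6% were called there, 10.8% higher and 9.87% lower, and 8 of the 9 did not overlap, beside 58.4%. The median log2 fold change of the 9 genes was −0.01 for TCF3-ZNF384, 0.09 for TAF15-ZNF384 and −0.06 for full-length ZNF384, beside 0.011, 0.009 and 0.034 over all tested genes. These comparisons share the empty vector libraries.

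TCF3-ZNF384 differed from full-length ZNF384 in 6 of the 9 genes (5 higher, 1 lower), beside 45.6% of all genes called, 22.2% higher and 23.4% lower. All 9 did not overlap, beside 72.8% of all genes. TAF15-ZNF384 differed from full-length ZNF384 in 7, with 4 higher and 3 lower, or 4 higher and 2 lower without the 5 abundant non-coding genes, and 4 higher and 1 lower with those genes left out and total counts in place of the trimmed mean of M values. Of all genes 33.3% were called there, 15.4% higher and 17.9% lower, and 7 of the 9 did not overlap, beside 66.3%. Median log2 fold changes were 0.31 for TCF3-ZNF384 and 0.12 for TAF15-ZNF384, beside 0.002 and −0.021 over all genes. TCF3-ZNF384 differed from TAF15-ZNF384 in Bcl2 alone, beside 10.1% of all genes called, 5.91% higher and 4.17% lower, with a median of −0.10 beside 0.001. Here 5 of the 9 did not overlap, beside 57.2% of all genes. With the 5 abundant non-coding genes left out, the values for full-length ZNF384 over the empty vector were 1.16 for Bcl2, −1.62 for Bbc3, −1.07 for Bcl2l11 and −1.16 for Pmaip1, and all 4 remained called.

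Per kilobase of merged exons, Mcl1 was the most abundant of the 9 genes in every group, at 108 to 112 CPM per kb with TCF3-ZNF384, 117 and 119 with TAF15-ZNF384, 119 and 125 with full-length ZNF384 and 127 and 127 with the empty vector. The place of Bcl2 changed between groups. It was the second most abundant with full-length ZNF384, at 49.2 and 54.1 CPM per kb, and with the empty vector it came next after Bax, at 24.4 and 21.2, overlapping Bbc3. With TAF15-ZNF384 Bcl2 was at 12.6 and 13.8 CPM per kb, below Bax, Bbc3 and Pmaip1. With TCF3-ZNF384 it was at 7.41 and 6.77, below those genes and Bak1 as well. Bcl2l11, Bcl2l1 and Apaf1 were the 3 lowest in every group, between 0.966 and 3.67 CPM per kb. Transcript choice was not measured, so these levels depend on the annotated exons.

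**Figure D3:**
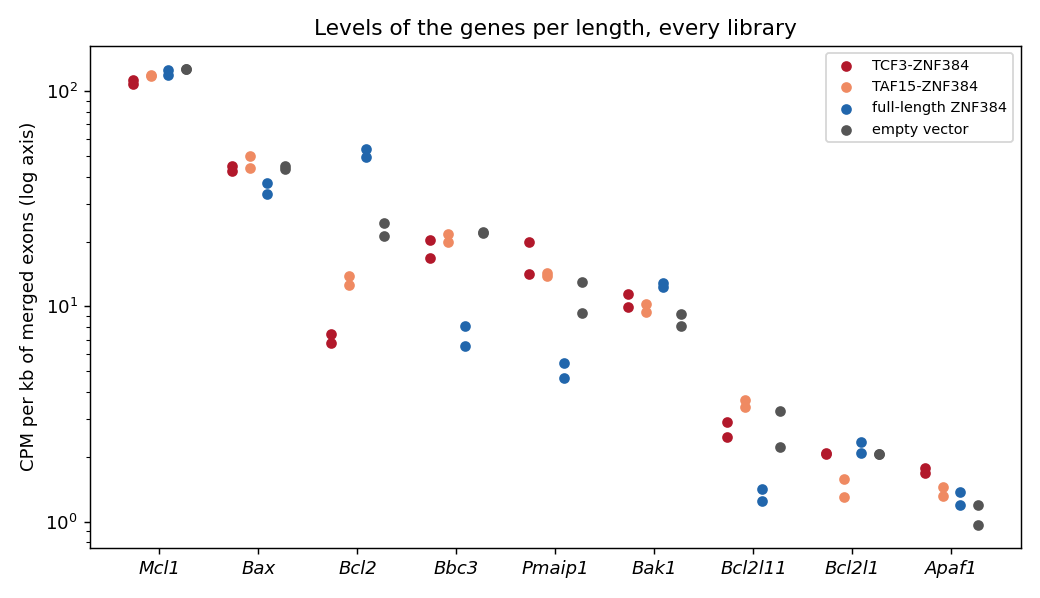
CPM per kb of merged exons (vertical axis, log scale) of the 9 genes, ordered by their level with the empty vector, with a point per library and a colour per group. Mcl1 is highest in every library, between 108 and 127 CPM per kb, and Bcl2 spans 6.77 to 54.1.

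Ratios of counts within a library do not depend on how libraries are scaled, and are given as descriptions, chosen after the values were seen. There were 2.68 and 2.08 Bcl2 counts per Bcl2l11 count with TCF3-ZNF384, 3.08 and 3.62 with TAF15-ZNF384, 35.1 and 34.2 with full-length ZNF384 and 9.80 and 5.80 with the empty vector. Per Bbc3 count there were 1.59 and 1.19, 2.08 and 2.49, 27.0 and 23.9, and 4.0 and 3.44 Bcl2 counts in the same groups. Full-length ZNF384 libraries were the highest and TCF3-ZNF384 libraries the lowest in both ratios, with no overlap between groups. Bcl2 counts per Mcl1 count followed the same order, at 0.136 and 0.130 with TCF3-ZNF384, 0.223 and 0.239 with TAF15-ZNF384, 0.852 and 0.896 with full-length ZNF384 and 0.395 and 0.343 with the empty vector. These are ratios of reads, not corrected for length, so they compare groups and not the 2 genes.

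**Figure D4:**
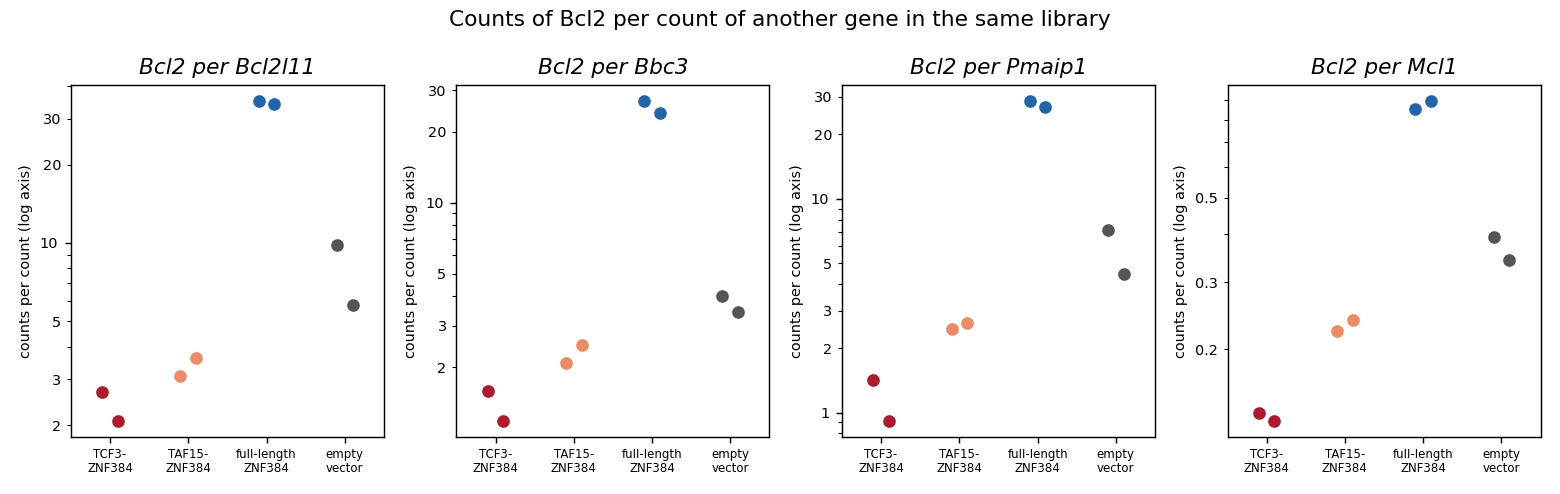
Bcl2 counts per count of Bcl2l11, Bbc3, Pmaip1 and Mcl1 in the same library (vertical axes, log scale), with a point per library in the 4 groups. Full-length ZNF384 lies highest in each panel, at 35.1 and 34.2 Bcl2 counts per Bcl2l11 count, and TCF3-ZNF384 lowest, at 2.68 and 2.08.

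Bcl2 and Pmaip1 had the widest ranges of group means, 2.86 and 1.73 on the log2 scale. The genes whose log2 CPM ran most like that of Bcl2 over the 8 libraries, among 8578 genes with at least 5 CPM, were Cd93 (Pearson's r = 0.996), Pfkp (0.995), Kbtbd11 (0.994), Dgke (0.993) and Cd84 (0.991). Kbtbd11 averaged 31.6 CPM with TCF3-ZNF384, 48.5 with TAF15-ZNF384, 159 with full-length ZNF384 and 73.9 with the empty vector. For Pmaip1 they were Sgk1 (0.988), H2-Q4, Zfp36l1, H2-Q6 and Lasp1 (each 0.986). Sgk1 averaged 32.1, 29.0, 7.32 and 18.8 CPM in the same order of groups. The points share group, depth and scaling, and with many genes moving between 4 groups high values are common, so these are descriptions. H2-Q4 and H2-Q6 belong to a family of similar sequences.

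A wider set of apoptosis genes was read in the same fit, in lists written with earlier results of these data known. Of 17 other BCL2 family genes 8 were tested. The rest, among them the BH3-only genes Bik and Hrk and the effector relative Bok, had at most 16 counts in any library (Bcl2l15), and those 3 had at most 3. Over the empty vector, 4 of the 8 rose in full-length ZNF384 cells and none fell, beside 10.8% of all genes higher and 9.87% lower, with a median of 0.39 beside 0.034 over all tested genes. Among them the mitophagy receptor gene Bnip3l (0.42 ± 0.13, adjusted p = 0.0356), was called in 8 of 17 alternatives, with 0.27 without empty vector replicate 2 (adjusted p = 0.333) and 0.26 without full-length ZNF384 replicate 2 (adjusted p = 0.152). With TCF3-ZNF384 2 rose, beside 16.2% of all genes, with a median of 0.13 beside 0.011. With TAF15-ZNF384 1 rose, beside 5.01%, with a median of 0.03 beside 0.009, and none fell with either fusion. Bmf, a BH3-only gene whose product is released from the cytoskeleton, was at 64.4 and 75.1 CPM with TCF3-ZNF384, 41.5 and 40.4 with TAF15-ZNF384, 7.04 and 17.7 with full-length ZNF384 and 20.1 and 19.6 with the empty vector. The full-length ZNF384 libraries differed widely from each other. Bmf rose with TCF3-ZNF384 over the empty vector by 1.82 ± 0.39 (adjusted p = 0.0171), a call kept in 12 of 17 alternatives and lost without either TCF3-ZNF384 library or either empty vector library. It was higher than with full-length ZNF384 in TCF3-ZNF384 cells by 2.55 ± 0.40 (adjusted p = 0.00388) and in TAF15-ZNF384 cells by 1.78 ± 0.41 (adjusted p = 0.0234, called in 13 of 17 alternatives). Without full-length ZNF384 replicate 1 these values for Bmf were 2.00 and 1.23, and without full-length ZNF384 replicate 2 they were 3.33 and 2.56. The TAF15-ZNF384 call was lost without either TAF15-ZNF384 library. TAF15-ZNF384 over the empty vector was at 1.05 and not called (adjusted p = 0.170).

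Bid, whose product is cut by caspase-8 to link death receptors to mitochondria, was highest with full-length ZNF384. It was at 5.15 and 6.08 CPM with TCF3-ZNF384, 4.13 and 6.03 with TAF15-ZNF384, 10.9 and 9.96 with full-length ZNF384 and 5.94 and 7.02 with the empty vector. It rose with full-length ZNF384 against the empty vector by 0.69 ± 0.17 (adjusted p = 0.0123), a call lost without empty vector replicate 1 (0.58, adjusted p = 0.11) and without full-length ZNF384 replicate 1 (0.61, adjusted p = 0.054). Bnip3, a mitophagy receptor gene induced by hypoxia, rose with all 3 proteins over the empty vector, by 0.55 ± 0.12 (adjusted p = 0.00272) in TCF3-ZNF384 cells, 0.57 ± 0.12 (adjusted p = 0.00800) in TAF15-ZNF384 cells and 1.60 ± 0.12 (adjusted p = 1.79e-06) in full-length ZNF384 cells. The call with TAF15-ZNF384 was kept in 14 of 17 alternatives and lost without either TAF15-ZNF384 library and without empty vector replicate 2. Bcl2l12 also rose with full-length ZNF384, by 0.59 ± 0.10 (adjusted p = 0.00104).

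Of 10 genes of caspases and mitochondrial factors, 2 fell and none rose in TCF3-ZNF384 cells against the empty vector, beside 17.0% of all genes lower and 16.2% higher. They were the mitochondrial protease gene Htra2 (−0.74 ± 0.15, adjusted p = 0.00158) and the nuclease gene Endog (−0.55 ± 0.17, adjusted p = 0.0218, called in 14 of 17 alternatives). With TAF15-ZNF384 none was called, beside 11.0% of all genes. With full-length ZNF384 1 was called, beside 20.6%, the flavoprotein gene Aifm1, which rose (0.49 ± 0.13, adjusted p = 0.0189, called in 14 of 17 alternatives), at 0.33 without empty vector replicate 2 (adjusted p = 0.235). Diablo, encoding the mitochondrial antagonist of the inhibitors of apoptosis, was higher than with full-length ZNF384 in TCF3-ZNF384 cells (0.37 ± 0.11, adjusted p = 0.0141) and TAF15-ZNF384 cells (0.50 ± 0.11, adjusted p = 0.00395). It was the only riser of the 10 in both comparisons, beside 22.2% of all genes higher with TCF3-ZNF384 and 15.4% with TAF15-ZNF384. In TCF3-ZNF384 cells 3 of the 10 fell against full-length ZNF384, beside 23.4% of all genes lower. They were Htra2 (−0.77 ± 0.15, adjusted p = 0.000734), Aifm1 (−0.36 ± 0.14, adjusted p = 0.0466, called in 8 of 17 alternatives) and the caspase gene Casp2 (−0.24 ± 0.09, adjusted p = 0.05, just under the threshold before rounding and called in 3 of 17).

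Among the inhibitors of apoptosis, 6 of 7 genes were tested, of which 2 rose and 1 fell with TCF3-ZNF384, 1 rose with TAF15-ZNF384 and 1 rose with full-length ZNF384 over the empty vector, beside 16.2% higher and 17.0% lower, 5.01% higher and 10.8% higher of all genes. Birc3, which encodes the ubiquitin ligase cIAP2, was at 99.0 and 93.4 CPM with TCF3-ZNF384, 56.9 and 51.7 with TAF15-ZNF384, 33.9 and 34.9 with full-length ZNF384 and 41.0 and 42.9 with the empty vector. The groups did not overlap. Birc3 rose in TCF3-ZNF384 cells by 1.20 ± 0.10 (adjusted p = 6.48e-07) and in TAF15-ZNF384 cells by 0.37 ± 0.10 (adjusted p = 0.0302, called in 11 of 17 alternatives) over the empty vector, and TCF3-ZNF384 exceeded TAF15-ZNF384 by 0.82 ± 0.10 (adjusted p = 0.000126). Birc6, encoding a large ubiquitin-conjugating enzyme, rose in TCF3-ZNF384 cells by 0.74 ± 0.09 (adjusted p = 3.97e-05) and in full-length ZNF384 cells by 0.39 ± 0.09 (adjusted p = 0.00981, called in 14 of 17 alternatives). Birc5, a gene of the mitotic chromosomal passenger complex, fell by −0.48 ± 0.11 with TCF3-ZNF384 (adjusted p = 0.00353). Xiap and Birc2 were not called in any comparison.

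In the death receptor pathway 8 of 8 genes were tested, of which 2 fell with TCF3-ZNF384, 1 fell with TAF15-ZNF384 and none was called with full-length ZNF384 over the empty vector, beside 17.0% lower, 6.01% lower and 20.6% called of all genes. Cflar, the gene of the caspase-8 inhibitor FLIP, was at 50.2 and 49.7 CPM with TCF3-ZNF384, 67.5 and 68.7 with TAF15-ZNF384, 78.3 and 83.4 with full-length ZNF384 and 87.9 and 84.3 with the empty vector, without overlap. It fell in TCF3-ZNF384 cells by −0.79 ± 0.09 (adjusted p = 2.68e-05) and in TAF15-ZNF384 cells by −0.34 ± 0.10 (adjusted p = 0.0360, called in 10 of 17 alternatives) over the empty vector, and TCF3-ZNF384 was lower than TAF15-ZNF384 by −0.45 ± 0.10 (adjusted p = 0.00908, called in 13 of 17 alternatives). The death receptor gene Fas was low, at 1.27 to 4.02 CPM, and higher than with full-length ZNF384 in TCF3-ZNF384 cells (1.08 ± 0.30, adjusted p = 0.00883) and in TAF15-ZNF384 cells (1.26 ± 0.31, adjusted p = 0.00667). In TCF3-ZNF384 cells 3 of the 8 fell against full-length ZNF384, beside 23.4% of all genes, namely Cflar (−0.70 ± 0.09, adjusted p = 5.20e-05), the adaptor gene Fadd (−0.44 ± 0.12, adjusted p = 0.0087, called in 14 of 17 alternatives) and the adaptor gene Tradd (−0.33 ± 0.11, adjusted p = 0.0236, called in 11 of 17). Fadd also fell with TCF3-ZNF384 over the empty vector by −0.39 ± 0.12 (adjusted p = 0.0229), a call kept in 12 of 17 alternatives and lost without either TCF3-ZNF384 library.

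**Figure D5:**
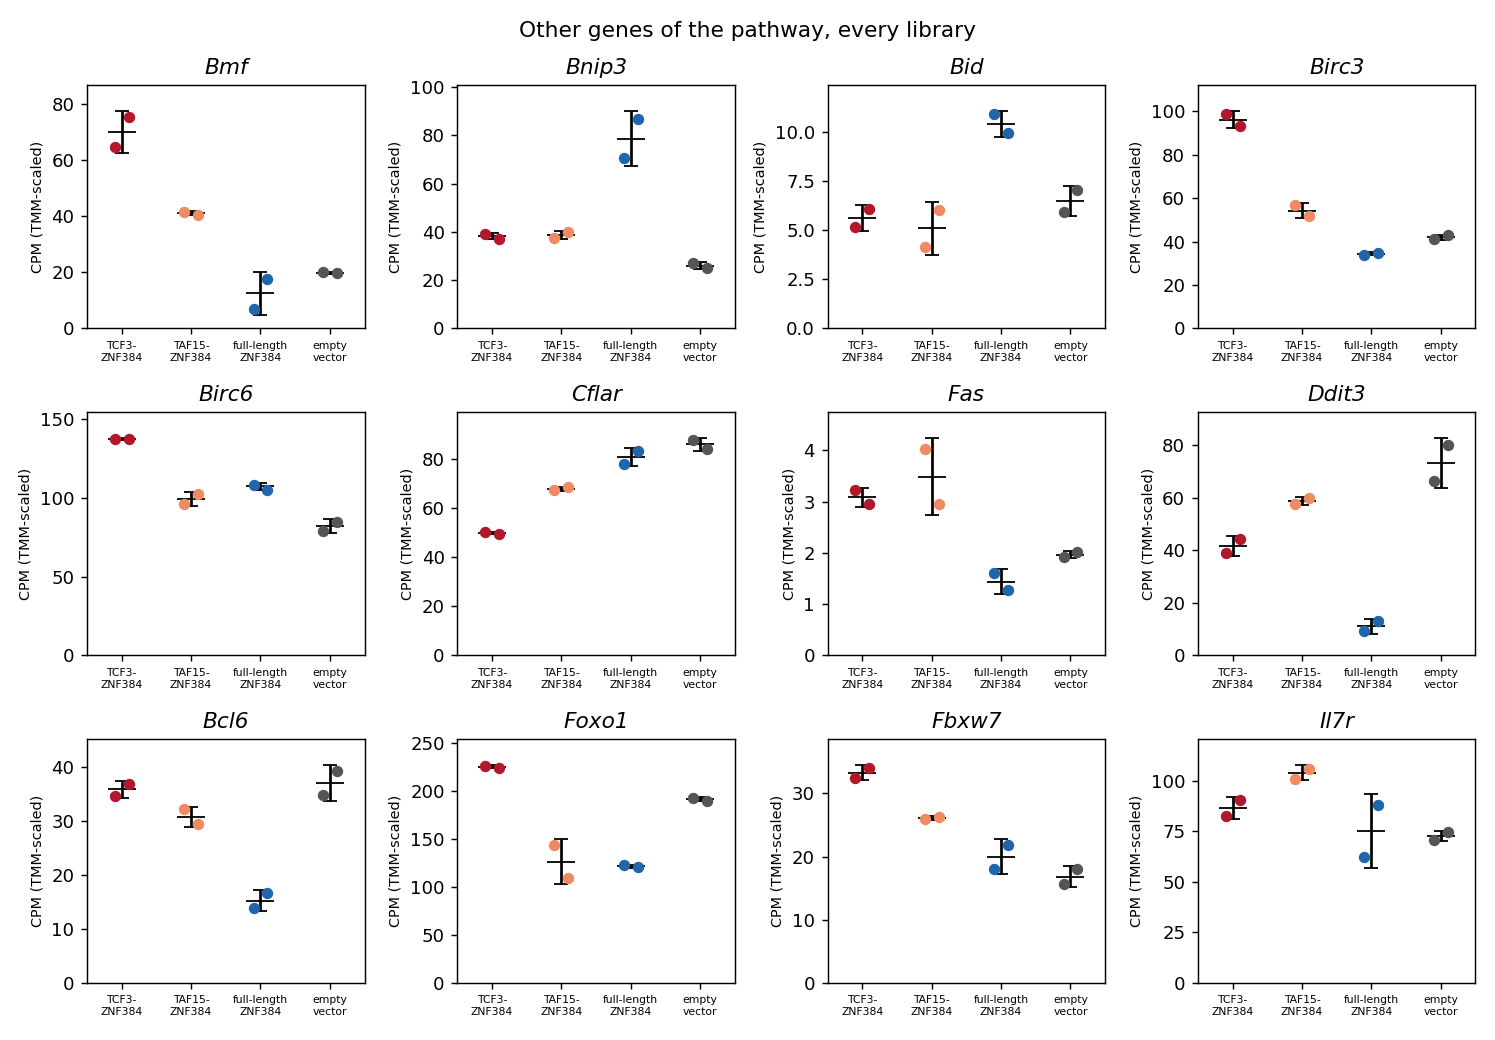
CPM (vertical axes, linear from 0) of 12 other genes of the pathway in the 4 groups, with points for the 2 libraries and bars for mean ± SD. Birc3 is highest and Cflar lowest with TCF3-ZNF384, at 99.0 and 93.4 CPM and 50.2 and 49.7 CPM, and Ddit3 and Bcl6 are lowest with full-length ZNF384.

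A last list held 15 genes that are known to control BCL2 family genes or proteins, and all were tested. With full-length ZNF384 4 fell and 1 rose against the empty vector, beside 9.87% of all genes lower and 10.8% higher, with a median of −0.29 beside 0.034. With TCF3-ZNF384 2 rose and 1 fell, beside 16.2% higher and 17.0% lower, with a median of 0.18 beside 0.011. With TAF15-ZNF384 2 rose and 1 fell, beside 5.01% higher and 6.01% lower, with a median of 0.08 beside 0.009. Ddit3, the stress transcription factor CHOP, which is known to repress Bcl2 and activate Bcl2l11, was at 39.0 and 44.3 CPM with TCF3-ZNF384, 57.6 and 60.0 with TAF15-ZNF384, 9.17 and 13.1 with full-length ZNF384 and 66.5 and 79.9 with the empty vector. It fell by −2.74 ± 0.15 with full-length ZNF384 (adjusted p = 1.21e-06) and by −0.81 ± 0.14 with TCF3-ZNF384 (adjusted p = 0.000796). In TCF3-ZNF384 cells Bcl2 was also lower than with the empty vector, by −1.69, and Bcl2l11 was not called (−0.02 ± 0.16, adjusted p = 0.935). Any link between Ddit3 and these genes was not tested. Bcl6, a repressor of p53 in B cells, fell by −1.29 ± 0.12 with full-length ZNF384 (adjusted p = 9.44e-06), at 13.9 and 16.6 CPM against 34.7 and 39.3 with the empty vector.

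Foxo1, which can activate Bcl2l11 and drives B cell differentiation, was at 226 and 224 CPM with TCF3-ZNF384, 143 and 109 with TAF15-ZNF384, 122 and 120 with full-length ZNF384 and 192 and 189 with the empty vector. It fell with TAF15-ZNF384 (−0.60 ± 0.12, adjusted p = 0.00436) and with full-length ZNF384 (−0.66 ± 0.11, adjusted p = 0.00119), and TCF3-ZNF384 exceeded TAF15-ZNF384 by 0.84 ± 0.12 (adjusted p = 0.000409). Fbxw7, part of a ubiquitin ligase that marks MCL1 for degradation, rose with TCF3-ZNF384 by 0.99 ± 0.13 (adjusted p = 3.99e-05) and with TAF15-ZNF384 by 0.63 ± 0.13 (adjusted p = 0.00684). The call with TAF15-ZNF384 was kept in 14 of 17 alternatives and lost without either TAF15-ZNF384 library and without empty vector replicate 1. Huwe1, another MCL1 ligase gene, rose with full-length ZNF384 by 0.45 ± 0.11 (adjusted p = 0.00910). Il7r, the interleukin-7 receptor chain gene, rose with TAF15-ZNF384 by 0.51 ± 0.14 (adjusted p = 0.0307), a call lost in 4 of 17 alternatives, those without either TAF15-ZNF384 library or either empty vector library. Trp53 was not called in any comparison, at 26.1 to 33.3 CPM over the libraries, and its target Mdm2 was higher than with full-length ZNF384 in TCF3-ZNF384 cells (0.42 ± 0.10, adjusted p = 0.00411) and in TAF15-ZNF384 cells (0.45 ± 0.10, adjusted p = 0.00452). Mdm2 averaged 47.4 CPM with TCF3-ZNF384, 48.7 with TAF15-ZNF384, 35.6 with full-length ZNF384 and 41.9 with the empty vector. It was not called with either fusion over the empty vector, and its calls were not followed through the alternative fits. Against full-length ZNF384 8 of the 15 genes were higher with TCF3-ZNF384, beside 22.2% of all genes higher and 23.4% lower, and 8 with TAF15-ZNF384, beside 15.4% and 17.9%, with none lower. With 1 library left out, 5 to 11 of the 15 were called for TCF3-ZNF384, with 5 without TCF3-ZNF384 replicate 2. For TAF15-ZNF384 it was 3 to 10, with 3 without TAF15-ZNF384 replicate 1 and 5 without TAF15-ZNF384 replicate 2 or full-length ZNF384 replicate 1.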

How the data were processed

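The authors deposited raw counts per gene, made with HTSeq 0.6.1p1 on mm9 per the submitters' processing notes, from stranded total RNA libraries per the labels. The aligner and strand setting are not given in the sources used here. No column was left unused. The tests used edgeR 4.0.16 (R 4.3.3): filterByExpr kept 12970 of 32499 genes, libraries were scaled by TMM, and a robust quasi-likelihood model with 1 term per group (4 residual degrees of freedom, biological coefficient of variation 0.0958) was tested 2-sided for 6 comparisons. P was adjusted by Benjamini-Hochberg over all tested genes, threshold 0.05. "Rose", "fell", "higher" and "lower" after a test mean past it. Standard errors are the log2 fold change divided by the root of F. Replicate numbers are those of the sample titles, which differ in part from the column names. The main fit held no replicate term. Deviations of the replicates from their group mean correlated between groups at 0.014 to 0.22, so a weak pairing may remain. The members, lists and rules were chosen with earlier results of these data known. Named genes were all members, up to 3 per list, comparison and direction by smallest p, and the 5 most correlated genes of the 2 widest-ranging members, and the text prints part of them. Xiap, Birc2, Trp53 and Mdm2 were added after their values were seen. Positions and exon lengths are from GENCODE vM1 (mm9), matched by symbol. In counts simulated for TCF3-ZNF384 over the empty vector, 18.0%, 75.5% and 86.5% of 200 genes changed by 0.5, 1 and 2 on the log2 scale were called. Alternatives were DESeq2 1.42.0, limma-voom (limma 3.58.1), other scalings and filters, a replicate block, fits of 2 groups, and leaving out each library.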

Additional observations from a re-analysis of the deposited data

How the results depend on the processing

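The number of genes called among the 9 was within 1.5 times its main value in 93 of 102 repeats (6 comparisons, 17 alternatives). TAF15-ZNF384 over the empty vector had 1 call, and 2 with no filter on low counts or only these 2 groups fitted, with 1 to 2 when 1 library was left out. TCF3-ZNF384 over TAF15-ZNF384 had 1 call, 2 when only these groups were fitted and 1 to 2 with a library left out. TAF15-ZNF384 over full-length ZNF384 had 7 calls and 4 to 7 with a library left out, the 4 without TAF15-ZNF384 replicate 2. With a replicate block the counts of called genes were the same in all 6 comparisons, 3 for TCF3-ZNF384, 1 for TAF15-ZNF384 and 6 for full-length ZNF384 over the empty vector. Of 918 repeats of single log2 fold changes of the 9 genes none reversed a call, 41 lost one and 14 gained one. The cause was not tested. For the other lists, 70 of 510 repeated counts were over 1.5 times lower and 49 higher. Counts over all genes moved more when a library was left out: 404 to 2783 for TAF15-ZNF384, 2501 to 5372 for TCF3-ZNF384 and 1064 to 3814 for full-length ZNF384 over the empty vector, beside 1430, 4317 and 2675, and 2158 to 5333, 3866 to 6558 and 371 to 2361 for TAF15-ZNF384 and TCF3-ZNF384 over full-length ZNF384 and TCF3-ZNF384 over TAF15-ZNF384, beside 4320, 5916 and 1308. Fits of only 2 groups called 2746 and 2548 genes for TAF15-ZNF384 over the empty vector and TCF3-ZNF384 over TAF15-ZNF384. Scaling by total counts, with the 5 abundant non-coding genes also left out, shifted the median of all genes by 0.139 for TCF3-ZNF384 and 0.111 for TAF15-ZNF384 over the empty vector, and by 0.168 and 0.139 over full-length ZNF384. The calls then split into 3013 higher and 1446 lower, 1034 and 506, 3930 and 2064, and 2724 and 1467. In the simulated counts most changes of 0.5 on the log2 scale were missed, but only 200 genes changed there. Far more genes were called in the data, where the adjustment of p is then less strict. The share of such changes missed in the data was therefore not measured. Changes under 0.5 were called for some genes and not for others, with Birc6 called at 0.39 for full-length ZNF384 over the empty vector.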
